A study of Mus musculus with 2 samples.

Results

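Voltage-gated ion channel genes, with the genes of their subunits and of related potassium channels, were taken as every gene whose symbol starts with Cacn or Kcn or names a sodium channel alpha or beta subunit (Scn with a number and the letter a or b). Of 138 such genes among 31055 features, 86 had at least 100 unique molecular identifiers (UMIs, counts of captured transcripts) over both libraries and are described here. The members were thus chosen by symbol and by their UMI total over all cells, to which a single class can contribute most, as for *Cacna2d4*, with 80.6% of its 283 UMIs in Pou1f1-positive cells. Another 51 had fewer UMIs and 1 had none. *Kcnk9* with 100 and *Cacng6* with 112 UMIs lay just inside this limit, and *Kcnj10* and *Scn1a* with 99 UMIs each lay just outside. Of the 86 genes, 83 code for proteins. The others are the noncoding *Kcnq1ot1*, *Kcnmb4os2* and *Kcnab3os*.

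The cells were the SOX9iresGFP+ fraction of mouse pituitaries at postnatal day 3, sorted from animals of the genotype Sox9iresGFP/+ (a GFP reporter at *Sox9*, a gene of pituitary stem cells, SCs), which all samples share. They were sequenced as 1 male and 1 female droplet library, and the methods give 3 pooled pituitaries for each. The sort keeps cells that hold GFP, so endocrine cells without it were not sampled, and with 1 library per sex no test was made.

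An excitable cell keeps its resting potential with potassium channels that are open at rest, fires action potentials with voltage-gated sodium and calcium channels, and ends them with voltage-gated and calcium-activated potassium channels. Pituitary endocrine cells are excitable, and the calcium that enters during their electrical activity drives hormone secretion. Pore-forming alpha subunits are accompanied by auxiliary subunits that set their gating and surface level. The symbols taken here also cover channels without a voltage sensor, namely inward rectifiers (Kcnj) and tandem pore domain leak channels (Kcnk), and relatives of calcium channel gamma subunits that traffic glutamate receptors (such as *Cacng2*).

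Cells were assigned to classes by raw UMIs of lineage genes, and not by clustering. Stem-marker cells (1811 male, 1851 female) had UMIs of *Sox2* and *Sox9* and none of the lineage genes. Lef1-positive cells (339 and 290) had at least 2 UMIs of *Lef1*, a transcription factor of WNT signalling that marks progenitors here, and no lineage gene. Gonadotroph-marker cells (787 and 127) had at least 20 UMIs of *Cga*, the common subunit of the glycoprotein hormones, with *Foxl2*, *Nr5a1*, *Gnrhr*, *Lhb* or *Fshb*. Pou1f1-positive cells (724 and 273) had at least 2 UMIs of *Pou1f1*, the factor of the growth hormone, prolactin and TSH lineages. Melanotroph-marker cells (189 and 104) had at least 50 UMIs of *Pomc* and at least 1 of *Pax7*. Mesenchymal-marker cells (500 and 295), with at least 10 UMIs of *Dcn*, served as a comparison. Levels are given as CPM, which is the sum of a gene's UMIs in the cells of 1 class and library, divided by all UMIs of the same cells and multiplied by 1000000. Each has an exact Poisson 95% interval that covers counting error only. Class sums ran from 1865065 UMIs in female melanotroph-marker to 26067010 UMIs in male stem-marker cells, so that 1 UMI was worth 0.536 and 0.0384 CPM. A further 6060 male and 2771 female cells, with median depths of 3248.5 and 9282 UMIs, were in no class, and no cell was in more than 1. The samples are labelled as stem cells, but the lineage classes show that they hold other cells as well. The libraries shared 19 barcodes.

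Genes that no class rule had used went with the labels, with exceptions. *Scgn* stood at 153 and 177 CPM in male and female gonadotroph-marker cells and at most 24.0 CPM in the other classes. *Pcsk2* stood at 1448 and 1869 CPM in melanotroph-marker cells and at most 6.32 CPM elsewhere. The stem cell gene *Aldh1a2* stood at 755 and 541 CPM in stem-marker cells and at most 185 CPM elsewhere, but *S100b* was at 0.422 and 0.240 CPM there. *Cartpt*, listed as a gonadotroph gene, stood at 121 and 83.1 CPM in Lef1-positive and at 34.7 and 124 CPM in gonadotroph-marker cells. *Gata2*, listed likewise, stood at 26.3 and 6.83 CPM in gonadotroph-marker cells. It was higher in mesenchymal-marker cells (85.7 and 58.3 CPM) and reached 7.38 CPM in female Pou1f1-positive cells. *Nhlh2*, also listed, went with the label, at 34.9 and 17.9 CPM in gonadotroph-marker cells and at most 3.77 CPM elsewhere. The 6 mesenchymal markers summed to 14653 and 16763 CPM in mesenchymal-marker cells and to between 2.63 and 54.3 CPM in the other classes. Immune markers summed to at most 0.790 CPM in those classes, with *Ptprc* at 0 throughout. *Pomc*, as a measure of stray RNA, was at 153 and 46.1 CPM in stem-marker cells, against 264871 and 138919 CPM in melanotroph-marker cells. The 4 proliferation markers summed to 586 and 463 CPM in stem-marker cells and to between 44.7 and 189 CPM in the 4 other pituitary classes. Their part in the differences below was not tested.

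A gene was called higher or lower in a class when its level, with 5 CPM added, was at least 2-fold above or below that of stem-marker cells in both libraries. This is a rule of size and not a test. In gonadotroph-marker cells 17 of the 86 channel genes were higher (19.8%), against 4.89% of the 14562 features with at least 100 UMIs. In Pou1f1-positive cells 13 were higher (15.1%, against 3.7% of features), and in melanotroph-marker cells 17 (19.8%, against 4.64%). In Lef1-positive cells 4 were higher (4.65%, against 1.76%). The shares of genes called lower were closer to the background. They were 9 genes in gonadotroph-marker cells (10.5%, against 7.32%), 6 in Pou1f1-positive cells (6.98%, against 4.25%), 7 in melanotroph-marker cells (8.14%, against 9.66%) and 3 in Lef1-positive cells (3.49%, against 4.66%). In mesenchymal-marker cells, taken through the same rule, 6 genes were higher (6.98%, against 6.76%) and 11 lower (12.8%, against 8.14%). The median log2 ratio over the 86 genes was 0.14 and 0.11 in gonadotroph-marker cells (all features 0.03 and 0.00), 0.27 and 0.26 in Pou1f1-positive cells (all features 0.04 and 0.02) and 0.21 and 0.22 in melanotroph-marker cells (all features -0.24 and -0.11). A low gene can pass the limit of 100 UMIs only through the class where it is high. This holds for the channel genes and for the background, but not to the same degree. Under 5 CPM in every pituitary class and library were 25.6% of the channel genes, against 15.1% of features.

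**Figure D1:**
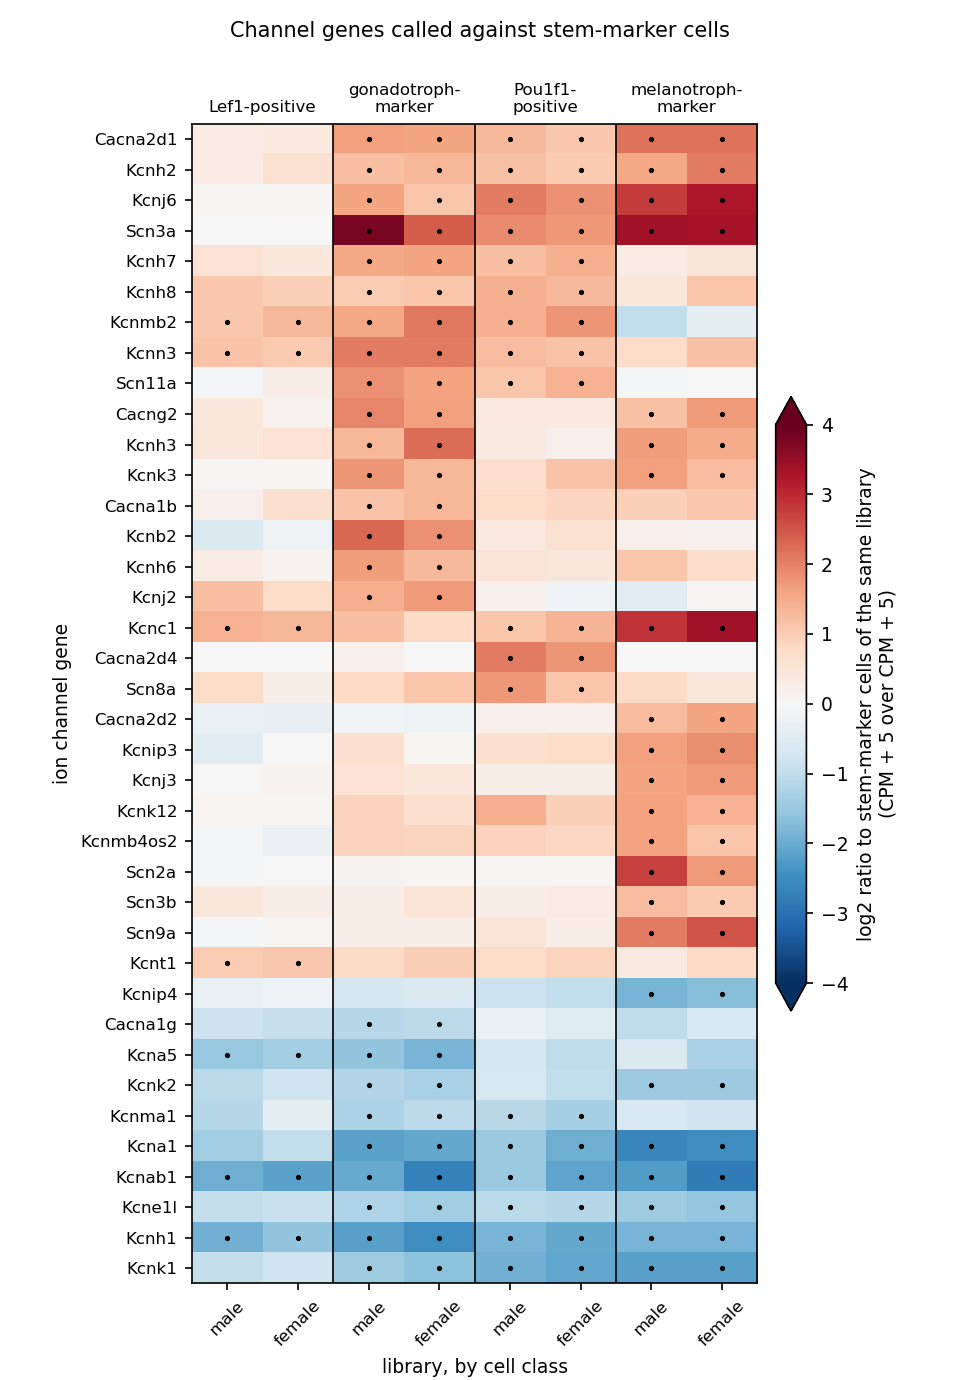
Colour gives the log2 ratio of each channel gene (rows) to stem-marker cells of the same library, with 5 CPM added, for 4 classes in the male and female library (columns), and dots mark genes called in that class. Drawn are 38 of the 39 genes called in at least 1 class. The call rule itself requires the same direction in both libraries wherever a dot is drawn.

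Of the 86 genes, 28 were higher in at least 1 of the 3 endocrine classes (32.6%, against 8.49% of all features), and 5 of them were higher in all (5.81%, against 1.34%), among them *Scn3a*, *Cacna2d1*, *Kcnh2* and *Kcnj6*. In exactly 2 of the classes 9 genes were higher (10.5%, against 2.05%), and in exactly 1 class 14 (16.3%, against 5.1%). Another 10 were lower in at least 1 class (11.6%, against 11.3%), 5 of them in all (5.81%, against 3.47%). No gene was higher in 1 endocrine class and lower in another, as were 0.117% of features. Called in none of the 4 classes were 47 genes (54.7%, against 79.5%), and 22 (25.6%) stayed under 5 CPM in every pituitary class and library, against 15.1% of all features. For *Kcnj8*, a pore of ATP-sensitive potassium channels, 85.0% of the UMIs lay in cells of no class, against 42.1% of all UMIs.

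The sodium channel alpha genes, which code for the pores that carry the upstroke of the action potential, were called higher in each of the 3 endocrine classes, by different members. Their 6 members summed to 5.83 and 7.38 CPM in male and female stem-marker cells, and to 10.9 and 11.2 CPM in Lef1-positive cells. The sum was 96.6 (91.1 to 102) and 54.1 (44.2 to 65.6) CPM in gonadotroph-marker cells, 44.3 and 37.1 CPM in Pou1f1-positive cells and 101 (92.1 to 111) and 87.9 (75.0 to 102) CPM in melanotroph-marker cells. Mesenchymal-marker cells had 7.18 and 7.64 CPM. All 3 endocrine classes thus stood above the intervals of stem-marker and Lef1-positive cells in both libraries.

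The genes behind these sums differed between the lineages. *Scn3a* was nearly silent in stem-marker cells, with 3 UMIs in 1811 male cells (0.115 CPM) and 2 UMIs in 1851 female cells (0.0958 CPM), and had 1 and 0 UMIs in Lef1-positive cells. It reached 65.5 (61.0 to 70.2) and 22.6 (16.3 to 30.4) CPM in gonadotroph-marker cells, 13.9 and 12.1 CPM in Pou1f1-positive cells, and 47.3 (41.0 to 54.3) and 46.6 (37.4 to 57.5) CPM in melanotroph-marker cells. Its ratio to stem-marker cells in gonadotroph-marker cells was 569 (exact 95% interval 194 to 2764) in the male and 236 (61.4 to 2009) in the female library. It is the only sodium channel gene called in all 3 endocrine classes. Its levels in melanotroph-marker and Pou1f1-positive cells did not differ beyond counting error between the libraries, while the gonadotroph-marker level was 2.90 times (2.13 to 4.04) higher in the male.

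*Scn2a* and *Scn9a*, the neighbours of *Scn3a* on chromosome 2 (the 3 genes lie within 1.18 Mb, at chr2:65457118-66634962 of mm10), were higher in melanotroph-marker cells alone. *Scn2a* stood at 30.9 (25.9 to 36.7) and 12.3 (7.82 to 18.5) CPM there, and at most at 0.740 CPM in the other 4 pituitary classes. *Scn9a* stood at 16.4 (12.8 to 20.7) and 23.6 (17.1 to 31.7) CPM in melanotroph-marker cells and at most at 2.33 CPM in the others. *Scn3a* shares the cluster but not the pattern, since it was called in gonadotroph-marker and Pou1f1-positive cells as well.

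*Scn11a*, which codes for a sodium channel known from pain-sensing neurons, showed the reverse. It was at 0.230 and 0.0479 CPM in stem-marker cells, 13.7 (11.7 to 16.0) and 10.5 (6.42 to 16.2) CPM in gonadotroph-marker cells, and 6.28 and 8.17 CPM in Pou1f1-positive cells. Melanotroph-marker cells held no *Scn11a* UMI in either library, which allows up to 0.703 and 1.61 CPM (3 counts per library). *Scn8a*, on chromosome 15, was called higher in Pou1f1-positive cells, with 15.9 and 10.5 CPM against 1.30 and 2.20 CPM in stem-marker cells. Its gonadotroph-marker level (5.92 and 10.5 CPM) missed the rule in the male library.

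**Figure D2:**
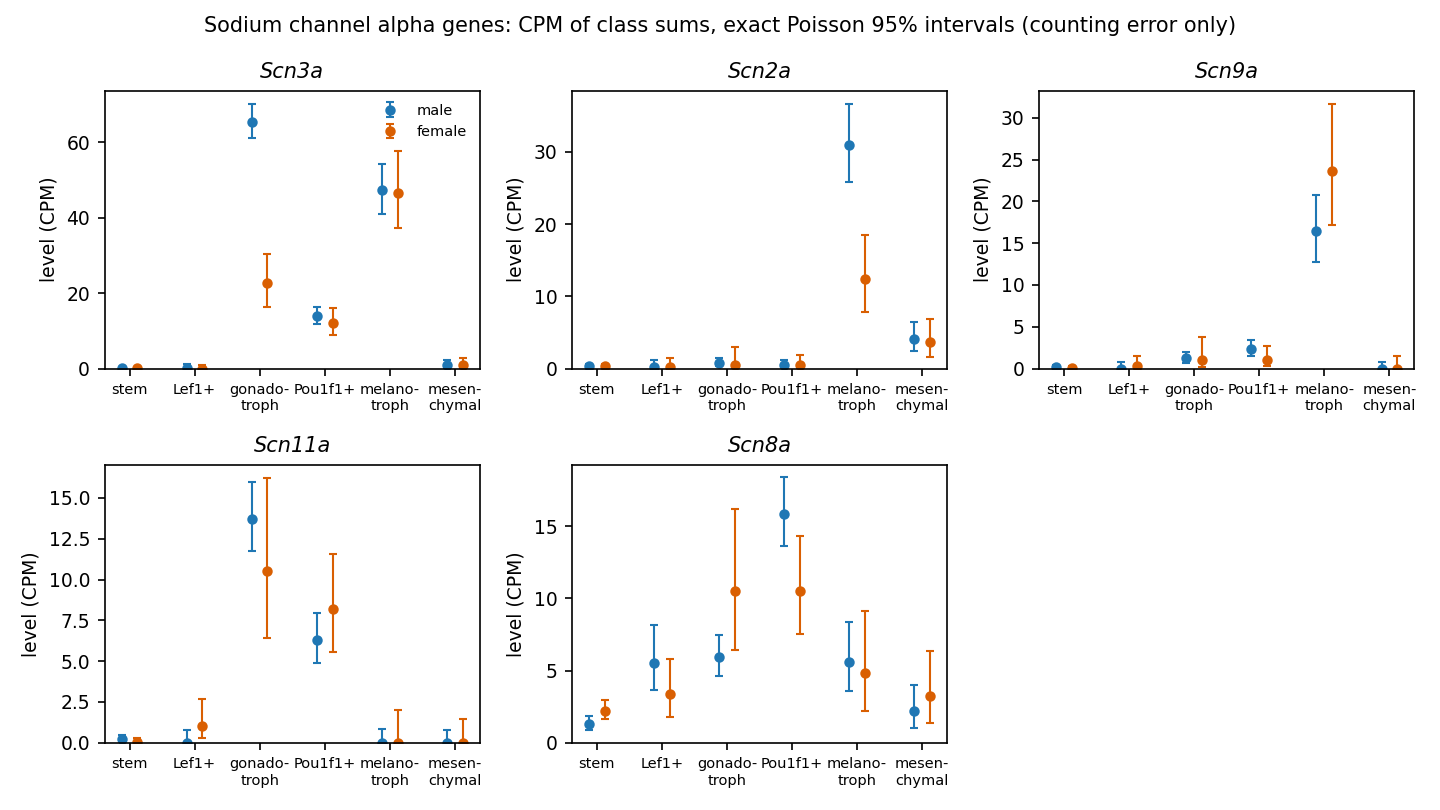
Each panel gives the level of a sodium channel alpha gene (CPM, linear axis from 0) in 6 cell classes, as points for the male (blue) and female (orange) library with exact Poisson 95% intervals. *Scn2a* and *Scn9a* stand up in melanotroph-marker cells, *Scn11a* in gonadotroph-marker and Pou1f1-positive cells, and *Scn3a* in all 3.

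Sodium channel beta genes, whose products are cell adhesion proteins that modulate the pore, were low. *Scn3b* was called in melanotroph-marker cells, at 7.26 and 5.90 CPM against 0.230 and 0.287 CPM in stem-marker cells. *Scn2b* reached 9.14 and 6.97 CPM there against 1.27 and 1.53 CPM in stem-marker cells and missed the rule.

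Shares of cells were taken after each cell was drawn down to 5000 UMIs, over the 9 alpha and beta genes together. At least 1 UMI of these genes was found in 3.5% and 4.69% of male and female stem-marker cells, and in 6.42% and 6.23% of Lef1-positive cells. The shares were 33.2% (29.8 to 36.7, exact Clopper-Pearson) and 22.4% (15.4 to 30.7) in gonadotroph-marker cells, 22.7% and 19.4% in Pou1f1-positive cells and 36.5% (29.2 to 44.3) and 35.6% (26.4 to 45.6) in melanotroph-marker cells. Mesenchymal-marker cells gave 10.9% and 5.95%, so the shares in stem-marker cells lay at or below this comparison and are read as background. For *Scn3a* alone, 23.3% and 9.6% of gonadotroph-marker cells and 18.0% and 21.2% of melanotroph-marker cells had a UMI, against 0.222% and 0.372% of mesenchymal-marker and 0 of 1659 and 1 of 1813 stem-marker cells (a count of 0 allows up to 0.181%). The unthinned shares of *Scn3a* were 43.7% and 15.0% in gonadotroph-marker and 51.9% and 42.3% in melanotroph-marker cells. The mean number of the 86 genes with a UMI per thinned cell was 3.76 and 3.98 in stem-marker, 3.10 and 3.43 in Lef1-positive, 4.47 and 4.15 in gonadotroph-marker, 4.36 and 4.11 in Pou1f1-positive, 4.68 and 4.95 in melanotroph-marker and 2.43 and 2.36 in mesenchymal-marker cells. The 83 coding genes summed to 802 and 846 CPM in stem-marker and to 578 and 662 CPM in Lef1-positive cells. The thinning left out between 0 and 152 cells of a class, and median depths before it were 10928 and 9643 UMIs in stem-marker, 14314 and 14422 in gonadotroph-marker, 21041 and 16199 in melanotroph-marker and 8201 and 7590 in mesenchymal-marker cells.

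For 60 of the 86 genes the RefSeq table of promoters (GRCm38.p6, 250 bases before to 50 after a transcript start) held 88 promoters. The 250 bases before the start are shown for the sodium channel genes with the most different patterns and for *Kcnh6*, 5′ to 3′, with capitals for any of the motifs searched. The table used here has no promoter under the symbol *Scn3a*.
Scn2a, second start (chr2:65668436-65668685, plus strand): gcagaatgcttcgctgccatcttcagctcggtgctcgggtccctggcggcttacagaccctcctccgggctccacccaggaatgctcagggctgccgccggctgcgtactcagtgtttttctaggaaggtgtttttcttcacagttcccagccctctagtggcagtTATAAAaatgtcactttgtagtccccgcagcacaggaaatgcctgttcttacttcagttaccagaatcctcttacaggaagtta
Scn9a (chr2:66634963-66635212, minus strand): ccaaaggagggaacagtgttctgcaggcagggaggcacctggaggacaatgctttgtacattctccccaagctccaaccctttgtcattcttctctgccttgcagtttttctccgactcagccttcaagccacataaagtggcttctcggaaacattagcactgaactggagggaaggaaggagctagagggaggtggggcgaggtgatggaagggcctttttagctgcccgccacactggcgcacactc
Scn11a (chr9:119825457-119825706, minus strand): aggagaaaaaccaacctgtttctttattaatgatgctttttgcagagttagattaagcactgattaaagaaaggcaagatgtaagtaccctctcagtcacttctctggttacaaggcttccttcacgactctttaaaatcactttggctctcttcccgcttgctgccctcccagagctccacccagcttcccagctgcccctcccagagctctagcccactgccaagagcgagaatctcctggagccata
Kcnh6 (chr11:106007898-106008147, plus strand): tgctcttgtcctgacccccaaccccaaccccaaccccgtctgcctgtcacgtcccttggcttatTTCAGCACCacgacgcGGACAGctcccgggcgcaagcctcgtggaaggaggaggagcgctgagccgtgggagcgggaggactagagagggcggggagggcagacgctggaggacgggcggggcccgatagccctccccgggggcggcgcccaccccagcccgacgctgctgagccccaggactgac

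The motifs were chosen after the levels were known and were searched on both strands. They were TTCAGCACC and GGACAG, the left part and the start of the right part of the site of REST (the repressor that keeps neuronal channel genes off in other cells), TATAAA, the core of the TATA box, and CAGATG, an E-box bound by NEUROD1. TTCAGCACC was found in 1 of 88 channel promoters, that of *Kcnh6*, and in 122 of 32851 promoters of all genes (0.371%). In *Kcnh6* it starts 186 bases before the transcript start, with GGACAG at 170 bases before it. GGACAG alone was in 23.9% of channel and 22.2% of all promoters. TTCAGCACC followed by GGACAG after any 2 bases was in 0 of 88 channel promoters and in 4 of all. TATAAA was in 5.68% of channel and 13.6% of all promoters, and lies 84 bases before the second start of *Scn2a*. CAGATG was in 15.9% and 17.2%. A match is a description of letters in this window, and no motif matched in *Scn9a* or *Scn11a*. The median number of CG pairs per promoter of 300 bases was 11 for channel genes and 7 for all.

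*Kcnh6* itself, which codes for a pore of the ERG family, was called higher in gonadotroph-marker cells. It stood there at 11.7 (9.84 to 13.8) and 7.35 (4.02 to 12.3) CPM, against 0.269 and 0.0479 CPM in stem-marker cells, with 6.32 and 3.22 CPM in melanotroph-marker cells. *Rest*, listed among the excitability genes set beside the channels, stood at 88.8 and 85.9 CPM in stem-marker cells. It was at 19.2 and 29.4 CPM in Lef1-positive, 9.79 and 4.20 CPM in gonadotroph-marker, 19.3 and 11.1 CPM in Pou1f1-positive and 4.22 and 2.14 CPM in melanotroph-marker cells, and was called lower in all 4. Mesenchymal-marker cells had 122 and 101 CPM of *Rest*. Any part of *Rest* in the channel levels was not tested.

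Calcium channel pore genes, which feed the calcium signal for secretion, had UMIs in stem-marker cells as well. The 7 genes summed to 59.2 and 71.2 CPM in male and female stem-marker cells. The sums were 65.3 and 68.8 CPM in gonadotroph-marker, 96.5 and 104 CPM in Pou1f1-positive and 97.9 and 110 CPM in melanotroph-marker cells. Mesenchymal-marker cells had 99.8 and 84.0 CPM, so such sums were not particular to the pituitary classes. *Cacna1a* (P/Q type) was the most even of the channel genes with at least 1000 UMIs, at 26.8 and 28.2 CPM in stem-marker cells, 19.9 and 20.1 CPM in Lef1-positive cells, 29.0 and 25.7 CPM in gonadotroph-marker cells, 30.6 and 27.9 CPM in Pou1f1-positive cells and 40.8 and 38.6 CPM in melanotroph-marker cells. *Cacna1d* (L type) stood at 19.7 and 31.2 CPM in stem-marker cells and at 43.9 and 58.5 CPM in Pou1f1-positive cells. In melanotroph-marker cells it was at 45 and 59.0 CPM, which missed the 2-fold rule. *Cacna1b* (N type) was the only pore gene called higher, in gonadotroph-marker cells, at 8.22 (6.69 to 10.0) and 9.45 (5.6 to 14.9) CPM against 0.959 and 0.719 CPM. *Cacna1g* (T type) was called lower there, at 1.15 and 1.05 CPM against 8.44 and 7.57 CPM, and was highest in mesenchymal-marker cells (35.7 and 32.2 CPM). *Cacna1c*, *Cacna1e* and *Cacna1h* stayed at or below 5.92 CPM in the 5 pituitary classes.

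Of the 4 alpha2delta genes, 3 were called higher in at least 1 endocrine class. *Cacna2d1*, whose product brings calcium channels to the surface, went from 36.9 and 39.6 CPM in stem-marker cells to 126 and 129 CPM in gonadotroph-marker, 98.7 and 88.8 CPM in Pou1f1-positive and 185 and 195 CPM in melanotroph-marker cells. The fold over stem-marker cells in melanotroph-marker cells was 5 (4.55 to 5.5) and 4.92 (4.34 to 5.57). *Cacna2d4* was called in Pou1f1-positive cells, at 16.2 and 12.4 CPM, and had 0 UMIs in melanotroph-marker cells of both libraries, which allows 0.703 and 1.61 CPM. *Cacna2d2* was called in melanotroph-marker cells alone, at 15.2 and 17.7 CPM against 3.45 and 2.59 CPM. None of the 4 beta subunit genes was called in any class. *Cacng2*, which codes for the glutamate receptor protein stargazin, was called in gonadotroph-marker (14.8 and 10.5 CPM) and melanotroph-marker cells (6.56 and 11.3 CPM), with 2 and 0 UMIs in all stem-marker cells.

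Voltage-gated potassium channel genes, which repolarise the membrane, changed in both directions. *Kcnc1*, a fast delayed rectifier, was called higher in Lef1-positive, Pou1f1-positive and melanotroph-marker cells. It stood at 0.921 and 0.287 CPM in stem-marker, 10.5 and 8.34 CPM in Lef1-positive and 7.89 and 8.43 CPM in Pou1f1-positive cells. Melanotroph-marker cells had 38.7 (33.0 to 45) and 49.3 (39.8 to 60.5) CPM.

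*Kcnb2*, another delayed rectifier, was called higher in gonadotroph-marker cells alone, at 33.3 (30.1 to 36.7) and 21.0 (15.0 to 28.6) CPM against 2.80 and 2.30 CPM in stem-marker cells. Of the ERG family, *Kcnh2* was higher in all 3 endocrine classes (from 8.17 to 22.0 CPM, against 1.38 and 1.34 CPM), and *Kcnh7* in gonadotroph-marker (10.3 and 10.5 CPM) and Pou1f1-positive cells (7.09 and 8.69 CPM). ERG channels are known for holding pituitary cells between bursts of firing. Of the ELK family, *Kcnh8* was higher in gonadotroph-marker and Pou1f1-positive cells, at 44.4 to 60.1 CPM against 19.3 and 21.2 CPM. It was not called in Lef1-positive cells, but was not particular to the endocrine classes. A *Kcnh8* UMI was found in 18.0% and 16.3% of thinned Lef1-positive cells, against 19.7% and 21.6% of thinned gonadotroph-marker cells. *Kcnh3* was called in gonadotroph-marker cells (7.98 and 18.9 CPM) and in melanotroph-marker cells (11.5 and 9.11 CPM).

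Of the 7 inward rectifier genes, 3 were called higher, *Kcnj6* in all 3 endocrine classes, *Kcnj3* in melanotroph-marker cells and *Kcnj2* in gonadotroph-marker cells. *Kcnj6*, a G protein-gated channel that dopamine receptors open in many cells, had 2 and 0 UMIs in all stem-marker cells. It was at 10.2 and 5.78 CPM in gonadotroph-marker, 16.1 and 12.6 CPM in Pou1f1-positive and 30.5 (25.4 to 36.2) and 41.8 (33.1 to 52.2) CPM in melanotroph-marker cells. Its partner *Kcnj3* was called in melanotroph-marker cells alone, at 10.3 and 12.3 CPM against at most 2.63 CPM in the other pituitary classes. The dopamine receptor gene *Drd2* stood at 74.0 and 60.1 CPM in melanotroph-marker cells and at most 5.74 CPM elsewhere. *Kcnj2*, a strong inward rectifier, was called in gonadotroph-marker cells alone, at 16.7 and 22.6 CPM, against 2.95 and 3.55 CPM in stem-marker and 0.937 and 3.75 CPM in melanotroph-marker cells. Lef1-positive cells missed the rule but were not free of it. A *Kcnj2* UMI was found in 7.03% and 4.84% of thinned Lef1-positive cells, against 8.99% and 10.4% of thinned gonadotroph-marker cells.

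Some channel genes stood higher in Lef1-positive than in stem-marker cells. The 4 called genes were *Kcnc1*, *Kcnmb2*, *Kcnn3* and *Kcnt1*. In the library nearer to 1, the ratio with 5 CPM added was 2.52 for *Kcnc1* but 2.11, 2.06 and 2.03 for the others, just over the limit of 2. The count was 2 with cells weighted equally, 1 with looser class rules and 0 with 10 CPM added or at 3-fold. *Kcnmb2*, a beta subunit that inactivates calcium-activated BK channels, went from 17.4 and 16.9 CPM in stem-marker to 42.3 and 49.0 CPM in Lef1-positive, 60.3 and 89.3 CPM in gonadotroph-marker and 55.2 and 70.1 CPM in Pou1f1-positive cells. In melanotroph-marker cells it was at 6.32 and 11.8 CPM. *Kcnn3*, an SK channel opened by calcium, went from 0.384 and 0.335 CPM to 6.83 and 5.99 CPM in Lef1-positive and 17.1 and 17.3 CPM in gonadotroph-marker cells. *Kcnt1*, a potassium channel gated by sodium, had 7.04 and 8.08 CPM in Lef1-positive cells against 0.921 and 1.25 CPM, and was called in no endocrine class. None of the members with Scn or Cacn symbols was called higher in Lef1-positive cells.

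**Figure D3:**
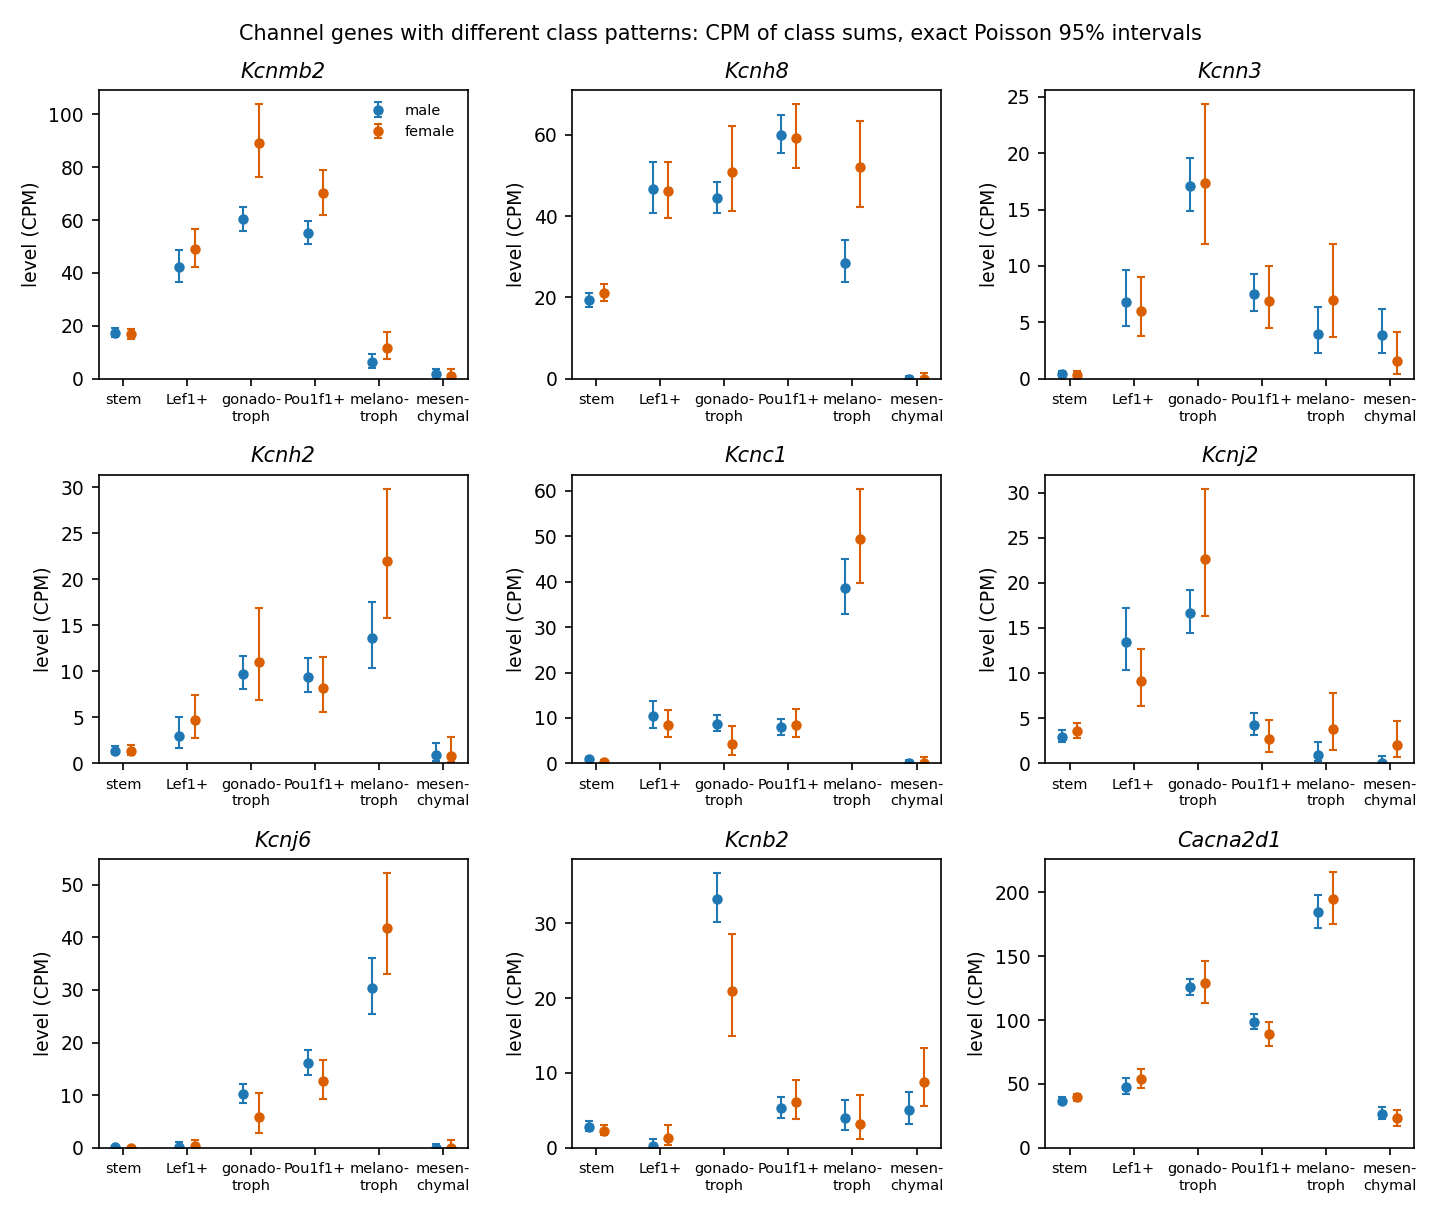
Panels give the level (CPM, linear axis from 0) of 9 channel genes in 6 cell classes, for the male (blue) and female (orange) library with exact Poisson 95% intervals. *Kcnmb2*, *Kcnn3* and *Kcnc1* were called higher in Lef1-positive cells too. *Kcnc1* and *Kcnj6* are highest in melanotroph-marker cells, and *Kcnb2* and *Kcnj2* in gonadotroph-marker cells.

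The genes called lower were nearly all potassium channel genes, *Cacna1g* being the exception. *Kcnk1*, a weak tandem pore domain channel, went from 202 (196 to 207) and 196 (190 to 202) CPM in stem-marker cells to 103 and 112 CPM in Lef1-positive cells. It was at 71.5 and 59.4 CPM in gonadotroph-marker, 49.7 and 42.9 CPM in Pou1f1-positive and 40.8 and 39.7 CPM in melanotroph-marker cells. A *Kcnk1* UMI was found in 62.1% and 61.0% of thinned stem-marker cells, 18.0% and 17.3% of melanotroph-marker cells, and 0.665% and 0.743% of mesenchymal-marker cells. *Kcnk2*, a channel opened by membrane stretch, went from 124 and 149 CPM to 52.5 and 58.3 CPM in gonadotroph-marker and 42.6 and 51.5 CPM in melanotroph-marker cells, and stayed at 81.1 and 105 CPM in mesenchymal-marker cells. *Kcnk3*, an acid-sensitive leak channel, went the other way, from 0.230 and 0.0958 CPM to 12.9 and 7.88 CPM in gonadotroph-marker and 11.5 and 6.97 CPM in melanotroph-marker cells.

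The other genes lower in all 3 endocrine classes were *Kcnab1*, *Kcnh1*, *Kcna1* and *Kcne1l*. *Kcnab1*, the gene of a beta subunit of shaker channels, was at 26.5 and 37.4 CPM in stem-marker cells. It was at 3.20 and 4.69 CPM in Lef1-positive, 2.88 and 1.58 CPM in gonadotroph-marker, 6.37 and 4.74 CPM in Pou1f1-positive and 1.64 and 1.07 CPM in melanotroph-marker cells. *Kcnh1* (EAG family) went from 30.7 and 34.4 CPM in stem-marker to between 2.10 and 8.34 CPM in the 4 other pituitary classes. *Kcna1*, the shaker pore itself, went from 25.4 and 26.3 CPM to 1.89 and 2.63 CPM in gonadotroph-marker cells, and had 0 and 1 UMIs in melanotroph-marker cells. Against the floor of 3 counts, the male stem-marker level of *Kcna1* was at least 36.1-fold higher. *Kcne1l*, an auxiliary subunit gene, was at 10.9 and 9.63 CPM in stem-marker cells and at 12.6 and 16.5 CPM in mesenchymal-marker cells. *Kcnab1*, *Kcnh1* and *Kcna5* were the genes called lower in Lef1-positive cells. *Kcnma1*, the BK channel pore, was called lower in gonadotroph-marker (6.83 and 7.88 CPM) and Pou1f1-positive cells (8.34 and 5.53 CPM), against 23.5 and 21.4 CPM. *Kcnip4*, a calcium sensor that binds A-type channels, was called lower in melanotroph-marker cells alone, at 1.17 and 1.07 CPM against 17.2 and 14.9 CPM, whereas its relative *Kcnip3* was higher there (25.3 and 28.4 CPM against 4.80 and 4.12 CPM).

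**Figure D4:**
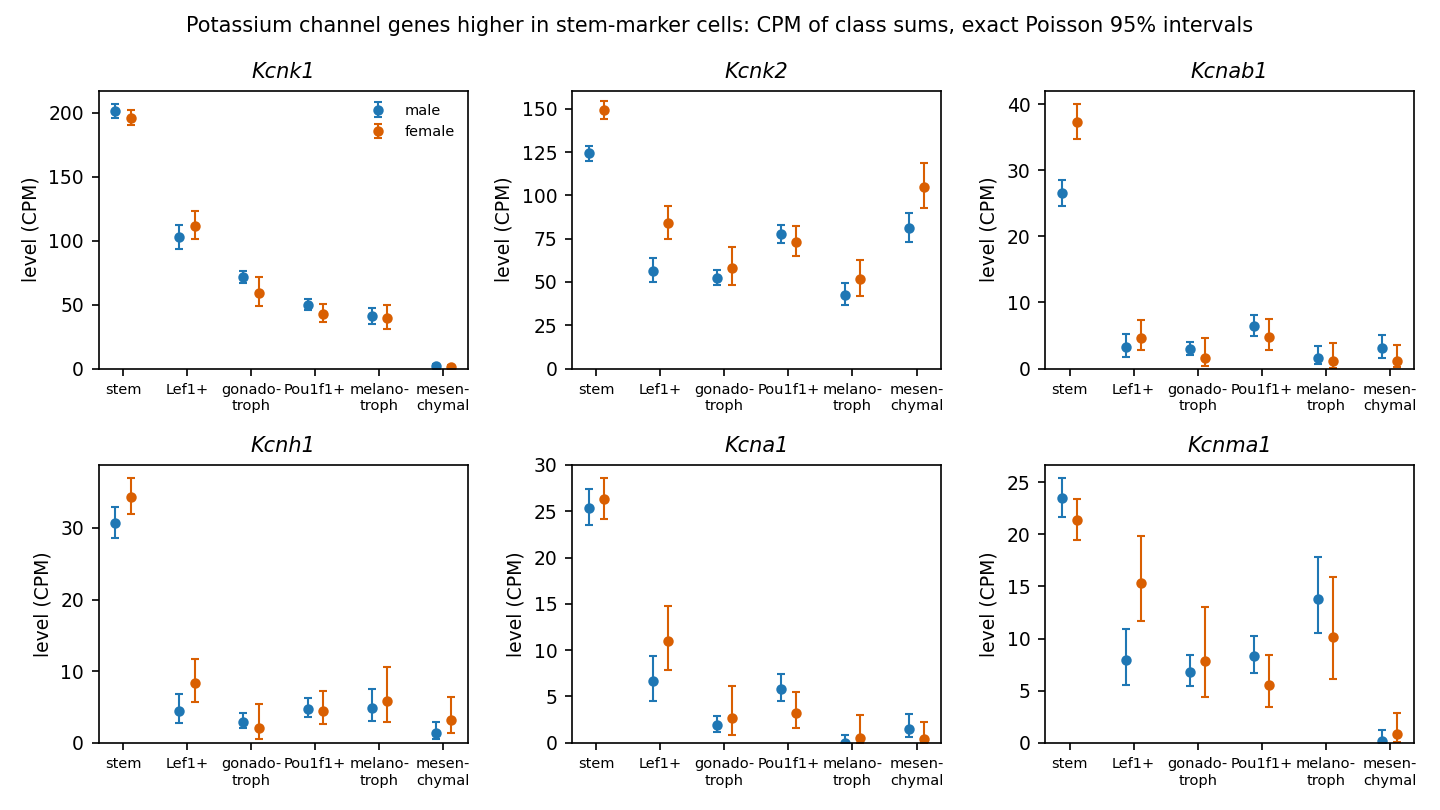
Panels give the level (CPM, linear axis from 0) of 6 of the 7 potassium channel genes called lower in at least 2 endocrine classes, in 6 cell classes, for the male (blue) and female (orange) library with exact Poisson 95% intervals. In these 6 panels the points of both libraries lie highest in stem-marker cells, which does not hold for *Kcne1l*, the gene not drawn.

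Gonadotroph-marker cells were divided into cells with *Foxl2* alone (352 male, 91 female) and cells with *Nr5a1*, *Gnrhr*, *Lhb* or *Fshb* (435 and 36). The former were taken as earlier and the latter as later cells, an order that was not tested. The paper ties FOXL2 to the commitment of thyrotrophs as well as gonadotrophs. Against stem-marker cells, 13 channel genes were higher in the earlier cells (15.1%, against 4.44% of features) and 16 in the later cells (18.6%, against 5.92%), while 10 (11.6%, against 7.46%) and 7 (8.14%, against 7.38%) were lower. Genes were counted here when the exact interval of the ratio of later to earlier cells lay on the same side of 1 in both libraries, a rule chosen after the data were seen. *Scn3a*, *Scn11a*, *Kcnk3* and *Kcnb2* were higher in the later cells. These 4 of 86 genes are 4.65%, near the 4.22% of all features. *Scn3a* went from 21.2 and 8.03 CPM in the earlier to 98.6 and 59.9 CPM in the later cells, a ratio of 4.66 (3.81 to 5.75) and 7.45 (3.66 to 16.4). *Kcnk3* went from 3.46 and 4.38 to 19.98 and 16.8 CPM, and *Kcnb2* from 17.7 and 12.4 to 45 and 43.0 CPM. *Kcnh8* was lower in the later cells (1 gene, 1.16%, against 2.27% of features). *Cacna2d1* was at 126 and 113 CPM in the earlier and 125 and 168 CPM in the later cells, against 36.9 and 39.6 CPM in stem-marker cells, with a later to earlier interval above 1 in the female library alone. *Kcnmb2* (75.8 and 92.8 CPM in the earlier, 48.7 and 80.4 CPM in the later cells) had an interval below 1 in the male library alone.

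**Figure D5:**
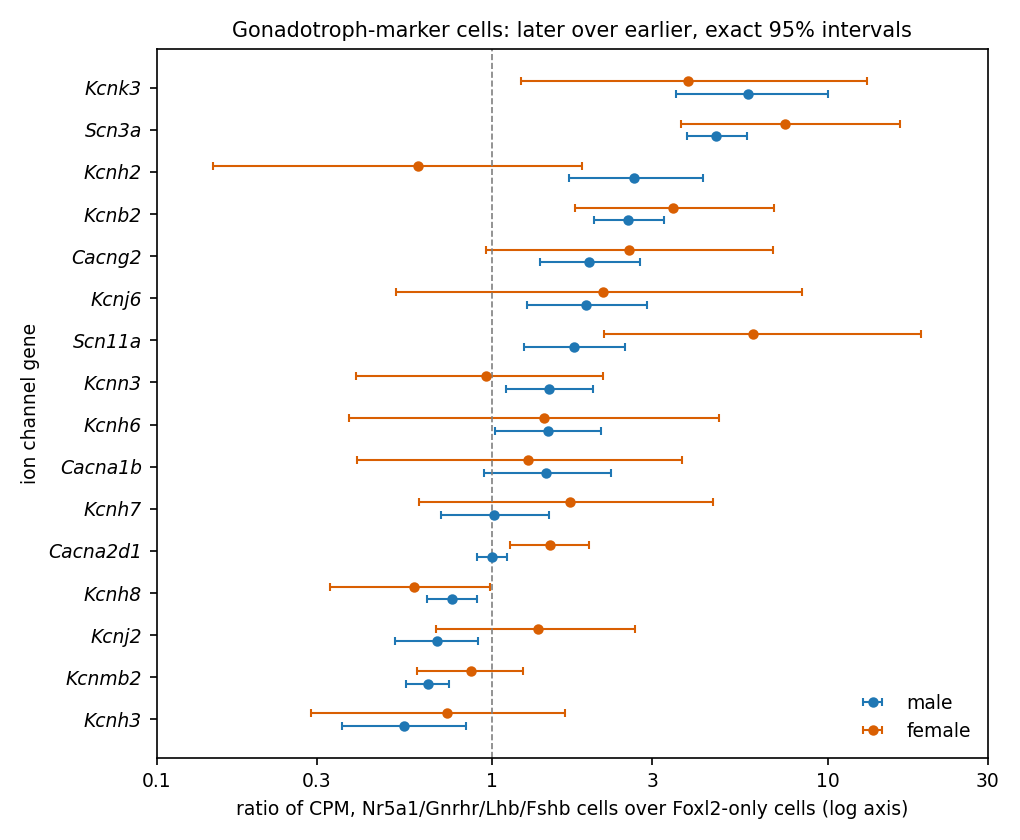
Points give the ratio (log axis) of the level in later to that in earlier gonadotroph-marker cells for 16 of the 17 channel genes called higher in gonadotroph-marker cells, in the male (blue) and female (orange) library, with exact 95% intervals and a dashed line at 1. The intervals of *Kcnk3*, *Scn3a*, *Kcnb2* and *Scn11a* lie above 1 in both libraries, and those of *Kcnh8* below 1.

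Pou1f1-positive cells were divided at 100 UMIs of *Gh* and *Prl* together, into 640 male and 241 female cells below and 84 and 32 cells at or above. Against stem-marker cells, 12 channel genes were higher below the limit (14%, against 3.6% of features) and 12 at or above it (14%, against 3.72%), while 6 (6.98%, against 4.46%) and 3 (3.49%, against 4.42%) were lower. By the same rule, 6 channel genes were higher at or above this limit (6.98%, against 3.41% of features), namely *Kcnma1*, *Kcnmb4*, *Kcnmb4os2*, *Cacna1d*, *Kcnk3* and *Cacng7*. *Kcnma1* went from 4.93 and 2.76 CPM to 25.8 and 22.4 CPM, a ratio of 5.23 (3.41 to 8.03) and 8.11 (3.14 to 21.8), beside 23.5 and 21.4 CPM in stem-marker cells. *Kcnmb4*, a BK channel beta subunit, went from 24.1 and 23.6 CPM to 79.6 and 103 CPM, and *Cacna1d* from 39.7 and 50.01 CPM to 65.3 and 110 CPM. BK channels open with calcium that enters through L-type channels such as that of *Cacna1d*. *Kcnmb4os2*, named as an antisense gene of *Kcnmb4*, went from 12.4 and 6.75 CPM to 37.3 and 65.3 CPM, and the sources used here do not state whether its counts were taken by strand. The 2 genes lower at or above the limit (2.33%, against 9.48% of features) were *Cacna2d4* (18.8 and 14.1 to 3.29 and 1.87 CPM) and *Kcnmb2* (61.2 and 77 to 24.2 and 28.0 CPM).

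Between the sexes the levels can be set side by side but not tested, since a sex is 1 library. Among genes with at least 30 UMIs in a class, those were counted whose exact interval of the male to female ratio lay off 1. In stem-marker cells 5 of 60 channel genes had a higher male level and 9 a higher female level (all features 22% and 17.5%). In Lef1-positive cells these were 0 and 7 of 31 (all features 10.7% and 9.86%), and in gonadotroph-marker cells 6 and 4 of 52 (12.2% and 7.38%). In Pou1f1-positive cells they were 3 and 5 of 67 (15.5% and 7.29%), and in melanotroph-marker cells 5 and 8 of 44 (5.45% and 22.3%). *Pomc* stood at 264871 CPM in male and 138919 CPM in female melanotroph-marker cells, which leaves a smaller share of UMIs for other genes in the male library. Its part in the ratios of that class was not tested. *Scn3a* in gonadotroph-marker cells gave 796 male and 43 female UMIs. Of the male gonadotroph-marker cells 55.3% were of the later kind, against 28.3% of the female cells. Within the later cells the male to female ratio of *Scn3a* was 1.65 (1.16 to 2.43), and within the earlier cells 2.63 (1.42 to 5.43). *Kcnb2*, at a ratio of 1.59 (1.14 to 2.25) over the whole class, was at 1.05 (0.684 to 1.67) within the later and 1.42 (0.843 to 2.55) within the earlier cells. *Scn2a* in melanotroph-marker cells was 2.51 times (1.60 to 4.09) higher in the male library, and *Kcnmb4* 2.21 times (1.66 to 2.98). *Kcnk9* in Pou1f1-positive cells was 4.84 times (2.56 to 9.42) higher in the female library, on 17 and 28 UMIs. *Cacna1d* was higher in the female library in stem-marker (1.58 times, 1.41 to 1.78), Lef1-positive, Pou1f1-positive and melanotroph-marker cells. In gonadotroph-marker cells its male to female ratio was 0.833 (0.614 to 1.15) over the class, 0.606 (0.398 to 0.942) within the earlier and 0.859 (0.522 to 1.51) within the later cells.

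Genes of other excitability pathways were listed beside the channels, 56 in all, of which 50 had at least 100 UMIs. In gonadotroph-marker cells 8 of the 50 were higher and 6 lower (all features 4.89% and 7.32%), in Pou1f1-positive cells 6 and 3 (3.7% and 4.25%), in melanotroph-marker cells 7 and 7 (4.64% and 9.66%) and in Lef1-positive cells 2 and 3 (1.76% and 4.66%). The sodium leak channel *Nalcn*, which holds the resting potential of pituitary cells near threshold, was higher in all 4 classes, from 3.03 and 2.40 CPM in stem-marker to between 12.3 and 21.5 CPM. Its partners *Unc79* and *Unc80* were higher in the 3 endocrine classes, *Unc80* from 1.23 and 1.15 CPM in stem-marker to 38.2 and 29.4 CPM in gonadotroph-marker and 44.0 and 42.4 CPM in melanotroph-marker cells. The calcium pump gene *Atp2b2* was higher in the 3 endocrine classes as well, while *Atp2b4* was lower in gonadotroph-marker, melanotroph-marker and Lef1-positive cells. *Trpc5*, a calcium-permeable channel, was higher in gonadotroph-marker (67.5 and 59.9 CPM) and lower in melanotroph-marker cells (0.703 and 1.61 CPM), against 21.3 and 23 CPM in stem-marker cells.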

How the data were processed

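Single-cell RNA was measured with droplet libraries of a male and a female SOX9iresGFP+ sort. The authors made the deposited count matrices with Cell Ranger 3.0.2 (file headers) on mm10 with an added eGFP sequence. They hold raw UMI counts per feature and barcode, and the sources used here name more than 1 kit version. Of 10569 male and 5796 female barcodes, 10410 and 5711 were kept (at least 50 genes, and a mitochondrial share within 3 SD of the mean). Total depth was 105883748 and 62830305 UMIs. Doublets were not removed in the reported values, and a Scrublet alternative is given at the end.

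The groups are the sexes, 1 library each, so no test was made and no p-value is given. Classes were set by raw lineage UMIs, and counts were summed per class and library. Exact Poisson, conditional binomial (ratios) and Clopper-Pearson (shares) 95% intervals cover counting error only. Fewer cells of a kind and less RNA per cell cannot be told apart in such sums. Levels are compared across classes within a gene, not between genes. For comparisons of shares, cells were thinned to 5000 UMIs.

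The members and lists were chosen with earlier results of these data known. Named by rule were the sodium channel and calcium channel pore genes, the 8 largest higher calls and 5 largest lower calls per endocrine class, the 5 largest Lef1-positive calls each way, the 5 most even genes, those at the limit of 100 UMIs and the 3 largest differences between libraries each way. Other genes, among them the relatives of named genes, were named after their values were seen. Some members that enter the counts and sums are not reported here by name. Gene positions came from GENCODE vM21 and promoters from RefSeq GRCm38.p6. The call rule was tried on simulated data with counting error only. Known folds were given there only to features with far higher stem-marker levels than *Scn3a*. Calls of genes that are low in stem-marker cells were thus not covered. Python 3.11.15, numpy 2.4.6, scipy 1.17.1, pandas 2.3.3 and scanpy 1.11.5 were used.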

Additional observations from a re-analysis of the deposited data

Results flagged for a closer look

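Of 342 pairs of a channel gene and a class that were screened, *Cacng4* in Lef1-positive cells was the only one whose interval lay on opposite sides of 1 for the 2 libraries. Its ratio to stem-marker cells was 0.765 (male) and 1.28 (female). The difference was not tested, and with 1 library per sex a difference of sex and of library cannot be told apart.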

How the results depend on the processing

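The numbers of genes called depended on the amount added to each level and on the fold required. With 1 CPM added instead of 5, the genes called higher were 11 in Lef1-positive, 28 in Pou1f1-positive, 26 in gonadotroph-marker and 26 in melanotroph-marker cells, and the genes called lower were 6 in Lef1-positive, 15 in gonadotroph-marker and 12 in melanotroph-marker cells. The shares of all features moved as well, to 3.40%, 7.45%, 8.51% and 7.61% higher and 9.07%, 12.5% and 16.2% lower in the same orders. With 10 CPM added, 0, 6, 9 and 9 genes were called higher in the same order of classes (all features 1.12%, 2.30%, 3.29% and 3.04%). At 3-fold, 0, 4, 6 and 8 were called higher (all features 0.735%, 1.46%, 2.11% and 2.21%), and 1 in Lef1-positive, 2 in Pou1f1-positive and 3 in gonadotroph-marker cells were called lower (1.37%, 1.13% and 3.17%). With a limit of 500 UMIs, 10 genes were called higher in gonadotroph-marker and 10 in melanotroph-marker cells (all features 5.52% and 4.67%), since fewer genes entered. For Lef1-positive cells the genes called higher were 2 with cells weighted equally and 1 with looser class rules (all features 1.70% and 1.22%), and the genes called lower were 5 with stricter class rules and 6 in the male library alone (6.58% and 6.36%). The causes of these last changes were not tested. Of 992 calls of single genes under an alternative, 910 were kept, 82 were lost and 0 changed direction. Some alternatives could not lose a call by their construction. These were 1 CPM added, no limit or a limit of 500 UMIs, and the male or the female library alone. Each lost 0 calls, so their kept calls say nothing about stability. Among 62 calls, 28 were kept in every alternative, among them those of *Scn3a* in all 3 endocrine classes. Scrublet marked 867 male and 261 female cells. Depth limited low genes most, since 1 UMI was worth 0.536 CPM in female melanotroph-marker cells. No paired analysis was possible because each sex has 1 library and the comparisons come from no test.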
